A study of Mus musculus with 7 samples.

Results

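The 2 main kinds of activated T cells from mouse spleen, here called CD8-like and CD4-like, were compared within 2 single-cell libraries. Their members were chosen by the measured UMI counts of the coreceptor genes Cd4, Cd8a and Cd8b1, so the levels of these 3 genes are a description and no result. A cell was CD8-like when its barcode held at least 1 UMI (a tagged, counted RNA molecule) of Cd8a or Cd8b1 and none of Cd4. It was CD4-like when it held at least 1 Cd4 UMI and none of Cd8a or Cd8b1. By this rule 4702 CD8-like and 2055 CD4-like cells were found among 9215 cells of the 2 libraries, and the whole series holds 16427 cells in 7 libraries. A further 491 cells held UMIs of both kinds and 1967 held neither. Both libraries, called total CD44high replicate 1 and replicate 2, came from wild type C57BL/6 mice at day 7 of infection with the Armstrong strain of LCMV (lymphocytic choriomeningitis virus). Spleen T cells with high CD44, a surface protein of activated T cells, were sorted as CD4+ and as CD8+ cells, and the sorted cells were combined in equal parts before capture in droplets. The labels do not give the animals' age or sex, or how many gave each library. The 5 other libraries hold T cells that bind a viral class II peptide (GP66), and 1 of them, from wild type mice at day 7 with a CD4 gate, served as a background for the class rule.

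As background, CD8 T cells read peptides on class I molecules and become killers that release granzymes and perforin onto infected cells, while CD4 T cells read peptides on class II molecules and help B cells and macrophages through secreted cytokines and surface ligands. The choice between these fates is made in the thymus and rests on the transcription factors Thpok (gene Zbtb7b) in CD4 cells and Runx3 in CD8 cells. LCMV Armstrong causes an acute infection in which both kinds expand in the spleen, the CD8 cells into cytotoxic effectors and the CD4 cells mainly into Th1 and follicular helper cells.

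CD8-like cells were the larger class in both libraries although the sorted cells had been mixed in equal parts. They made up 3615 of 7022 cells of replicate 1 (51.5%, exact 95% interval 50.3 to 52.7) and 1087 of 2193 cells of replicate 2 (49.6%, 47.5 to 51.7). CD4-like cells made up 21.2% (20.3 to 22.2) and 25.7% (23.9 to 27.6), cells with both 4.77% and 7.11%, and cells with neither 22.5% and 17.6%. In the CD4-gated GP66+ library the rule called 41 of 2261 cells CD8-like (1.81%, 1.30 to 2.45) and left 26.1% in neither class. The shares describe the rule and were not tested, and the intervals cover counting error only. Class membership rested on more molecules for CD8-like cells: exactly 1 class UMI was held by 6.09% and 4.32% of CD8-like cells of replicates 1 and 2, against 59.1% and 53.6% of CD4-like cells. Of the 41 CD8-like cells of the CD4-gated library, 85.4% held exactly 1. Cd8b1 stood at 1722 and 1429 CPM (UMI counts scaled to a total of 1000000) in CD8-like cells and Cd8a at 409.8 and 459, while Cd4 stood at 337 and 321 CPM in CD4-like cells.

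**Figure D1:**
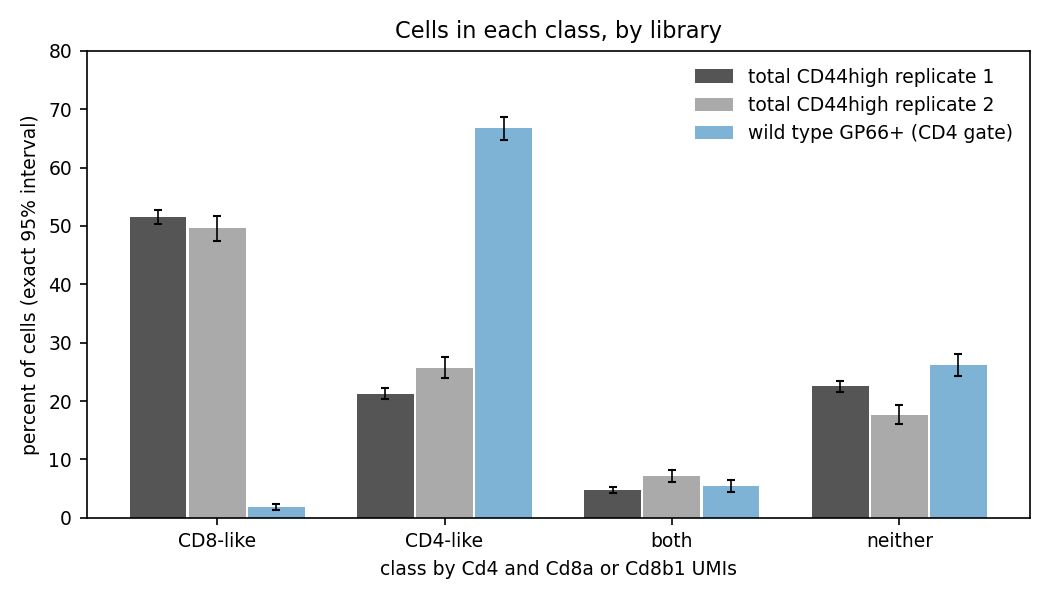
Percent of cells (vertical axis) in each class by coreceptor UMIs, in both total CD44high libraries and the CD4-gated wild type GP66+ library, with exact 95% binomial intervals as error bars. CD8-like cells make up 51.5% and 49.6% of the total libraries and 1.81% of the CD4-gated library.

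The classes were close in depth. Median UMIs per cell were 4182 and 5252 for CD8-like and 4144 and 5094 for CD4-like cells, with 1457 and 1820 against 1538 and 1852 genes. Cells with both kinds of UMI were deeper (6293 and 7529 UMIs) and cells with neither shallower (2982 and 3359), and how much doublets add to the first or missed molecules to the second was not tested. At the cell filter, replicate 1 held 12 barcodes within 50 genes under the minimum of 500 genes (6 of them CD8-like) and 10 within 50 genes from the minimum up (3 CD8-like), and replicate 2 held 3 and 6. Just above the limit of 10% mitochondrial UMIs, at up to 11%, lay 12 and 8 barcodes, and 12 and 12 lay between 9 and 10%. By the suffixes of its barcodes, replicate 1 joins 3 capture wells. Any pair of the wells of both replicates shared 2 to 11 cell barcodes, where 4.54 to 9.99 would be shared by chance. The replicates differed in sex-linked transcripts: an Xist UMI was present in 84.8% of CD8-like and 93.2% of CD4-like cells of replicate 1 and in 0 of 1087 and 0 of 563 cells of replicate 2, with upper bounds of 0.339% and 0.653% by the exact interval. Ddx3y, of the Y chromosome, was found in 22.2% and 23.6% of CD8-like and CD4-like cells of replicate 2 and in none of replicate 1 (upper bounds 0.102% and 0.247%).

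To compare the classes, UMIs were summed over the cells of each class in each library. This gave 4 sums of 3064111 to 18016715 UMIs, tested with edgeR's quasi-likelihood test with the library as a block and Benjamini-Hochberg adjustment. Of 10246 genes tested, 1846 were higher in CD8-like cells (18.0%) and 1917 in CD4-like cells (18.7%) at an adjusted p of at most 0.05. At least a 2-fold difference beside the call was seen for 448 genes (4.37%) and 690 genes (6.73%). The median log2 difference over all tested genes, CD8-like over CD4-like, was -0.02. These are 3763 called genes, 36.7% of those tested. Of them 3738 had the same sign in both libraries and 25 had opposite signs. In all that follows, CPM are those of a class sum after edgeR's scaling unless said otherwise, log2 values are CD8-like over CD4-like with their standard error (SE), and pairs of values are replicates 1 and 2. The fit has 1 residual degree of freedom, and the spread of each gene was drawn mostly from that of all genes (median prior degrees of freedom 28.6), so small p-values rest on this pooling over 2 libraries. In such sums more cells with a transcript and more transcript per cell cannot be told apart.

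**Figure D2:**
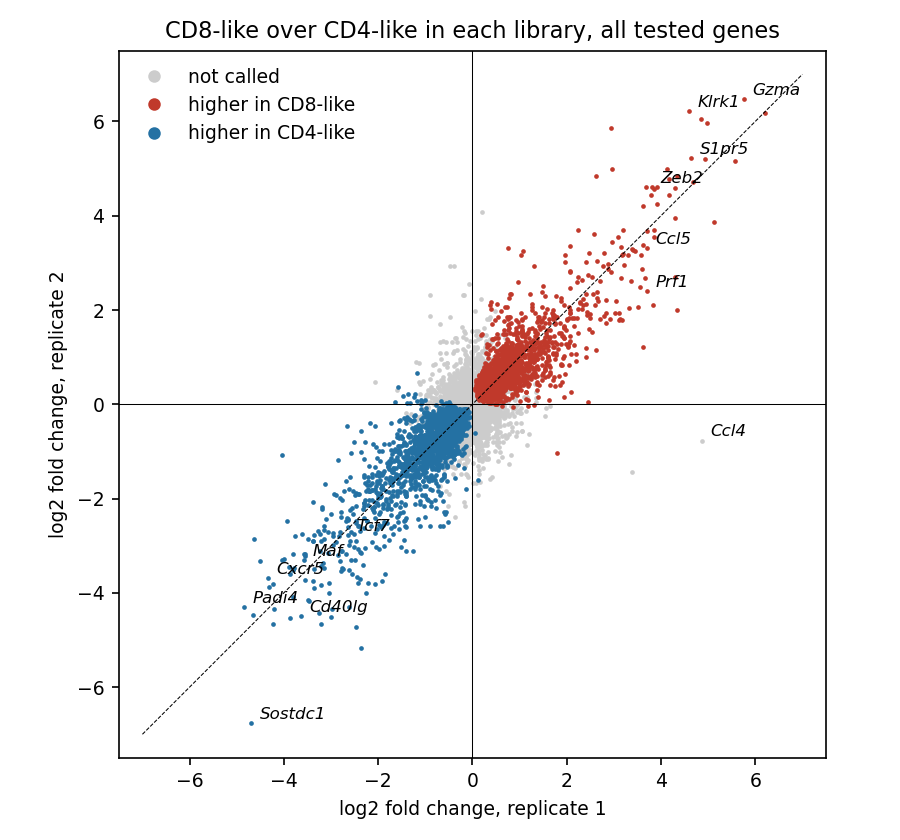
Log2 fold change of CD8-like over CD4-like cells in replicate 1 (horizontal) and replicate 2 (vertical) for the 10246 tested genes, coloured by the call over both libraries; the dashed line marks equal values. Gzma lies far up, at 5.76 and 6.48, and Sostdc1 far down and below the line, at -4.69 and -6.76, and Ccl4 is off the line, at 4.86 in replicate 1 and -0.77 in replicate 2.

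Genes of the cytotoxic granule were mostly higher in CD8-like cells. Gzma, a granule serine protease (chromosome 13), stood at 6618 and 3900 CPM in CD8-like cells and 122 and 43.6 in CD4-like cells, so that every CD8-like sum was far above both CD4-like sums. Gzmb, which cleaves caspases in target cells, stood at 1335 and 2124 against 129 and 349 CPM, a log2 difference of 2.99 ± 0.09 (SE, adjusted p = 9.0e-22). Gzmk (305 and 289 against 32.4 and 36.8 CPM, log2 3.12) and Gzmm (64.2 and 43.9 against 6.76 and 4.60, log2 3.25) are further granzymes with the same order of the sums. Prf1, whose product perforin opens the target's membrane, was low throughout, at 22.9 and 20.5 against 1.55 and 3.68 CPM, yet differed by 3.29 ± 0.26 (adjusted p = 5.9e-12, and 2.41 in replicate 2 alone). Fasl, the death receptor ligand, stood at 50.3 and 33.3 against 8.73 and 9.20 CPM, and the lysosomal protease gene Ctsd at 815 and 868 against 273 and 317. Of the 22 tested members of the list, 13 had more in CD8-like cells and 4 had less by the test, with a median log2 of 1.30. Over all tested genes 18.0% and 18.7% were called in these directions, so the 4 are near that share. Without the library block the list's counts were 13 and 0.

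Some granule genes were called higher in CD4-like cells, a share near that over all tested genes and with no call left without the library block. Among them Srgn, the proteoglycan that packs granule proteins, stood at 598 and 582 CPM in CD8-like and 776 and 828 in CD4-like cells (log2 -0.44 ± 0.06). Stx11, a membrane fusion protein (34.8 and 33.2 against 43.0 and 68.4 CPM), differed by -0.61 (-0.30 in replicate 1 and -1.04 in replicate 2), and the lysosomal membrane protein gene Lamp1 by -0.44 (-0.29 in replicate 1), although its sums of different libraries overlap (45.3 and 99.3 against 55.2 and 150.3). After each cell was thinned to 1500 UMIs, a Gzma UMI was found in 67.5% and 58.1% of CD8-like cells, in 7.94% and 4.89% of CD4-like cells and in 24.1% and 21.8% of cells with both coreceptors. Before thinning the CD8-like and CD4-like shares were 75.1% and 70.0% against 19.4% and 15.6%. Droplets with 10 to 100 UMIs, which hold free RNA, had Gzma at 2809 and 1556 CPM scaled to their totals, and how much of the CD4-like share comes from free RNA was not tested.

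Lectin-like receptors best known from natural killer (NK) cells had the highest median of the 25 gene lists. Of 19 tested NK-type receptors and adaptors 16 were higher in CD8-like cells and 0 in CD4-like cells, with a median log2 of 2.63 (12 and 0 without the library block). Klrd1 encodes CD94, which pairs with the NKG2 chains of Klrc1 and Klrc2. The inhibitory chain Klrc1 stood at 376 and 314 CPM in CD8-like and 30.4 and 30.1 in CD4-like cells (log2 3.53), and the activating chain Klrc2 at 72.9 and 92.8 against 5.35 and 7.06 (log2 3.74 ± 0.14). Both replicates of each class lay close together for these chains, with no overlap between the classes. Klrg1, an inhibitory receptor that marks terminal effector cells, stood at 314 and 214 against 25.4 and 11.4 CPM. Klra7, a Ly49 receptor, had 720 UMIs in CD8-like cells and 2 in CD4-like cells, a ratio of 161 with a counting interval of 44.5 to 1334. That interval treats UMIs pooled over both libraries as independent, so it leaves out the spread between cells and between libraries. A Klra7 UMI was found in only 4.23% and 3.96% of CD8-like cells. Hcst, the adaptor DAP10 that carries the signal of Klrk1 (NKG2D), differed far less, at 814 and 541 against 538 and 418 CPM (log2 0.49). Of the 7 markers of NK and innate lymphoid cells, which summed to 164 and 124 CPM of the class total in CD8-like and 17.6 and 8.81 in CD4-like cells, 3 were tested (Klre1, Eomes and Klrb1c) and all 3 were higher in CD8-like cells. Ncr1, which defines NK cells, was near 0 in both classes, at 0.167 and 0 CPM of the class total in CD8-like and 0.140 and 0 in CD4-like cells.

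Many of these receptor genes neighbour each other on chromosome 6, in the cluster known as the NK gene complex. Between Klre1 and Klra1 (GRCm38, chromosome 6, 129577905 to 130386874, 809 kb) 11 genes were tested, of which 10 were higher in CD8-like cells and 0 in CD4-like cells. On the whole of chromosome 6 the share called in that direction was 20.4% of 485 tested. The 11th, the Ly49 gene Klra4, had log2 1.25 with an adjusted p of 0.0719 on 1.67 and 3.79 against 1.41 and 0 CPM. Klra1 (13.5 and 12.6 against 0.704 and 0.307 CPM) and Klra3 (19.4 and 4.90 against 0.845 and 0) are further Ly49 receptors of the cluster, and Klra6 had no UMI in CD4-like cells. On the side of Cd69 genes were called in both directions. BC035044 (6.91 and 7.26 against 2.11 and 2.76 CPM, log2 1.59) and the NK receptor gene Klrb1c (9.11 and 3.32 against 5.35 and 1.84, log2 0.78) were higher in CD8-like cells, the latter with overlapping sums. The long noncoding gene 2310001H17Rik, 383 kb before Klrd1, stood at 87.5 and 79.0 CPM in CD8-like and 355 and 340.3 in CD4-like cells (log2 -2.06 ± 0.07). Clec2d, which encodes a ligand of NK receptors, differed by -0.29 and Clec2i by -0.68, and Cd69, an early activation antigen, by -0.27 on 44.8 and 70.0 against 59.6 and 74.9 CPM. The calls of BC035044, Klrb1c, Clec2d and Cd69 were kept in 10, 9, 8 and 5 of 13 alternative analyses, and Cd69 stood at -0.41 in replicate 1 and -0.10 in replicate 2. The Ly49 and NKG2 genes are close copies of each other, and reads of one can be counted for another. The window was chosen after its values were seen, as 5 of the 15 genes with the largest differences lie in it.

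**Figure D3:**
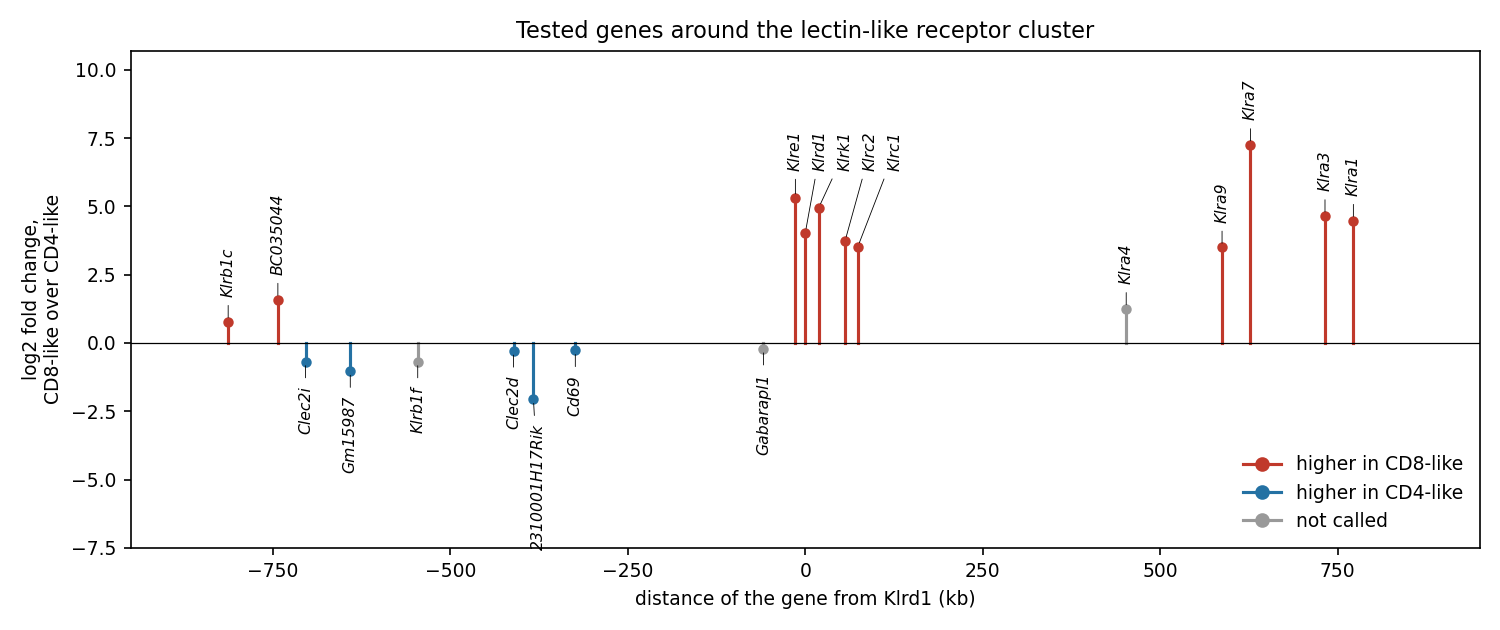
Log2 fold change of CD8-like over CD4-like cells (vertical axis) for tested genes by distance of the gene from Klrd1 in kb (horizontal axis), coloured by call; Klra6, with no UMI in CD4-like cells, is not drawn. From Klre1 to Klra1 the called genes are all higher in CD8-like cells, and 2310001H17Rik stands at -2.06 on the other side.

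Runx3, the transcription factor of the CD8 lineage, stood at 219 and 198 CPM in CD8-like and 79.7 and 79.2 in CD4-like cells, a log2 difference of 1.40 ± 0.08 (adjusted p = 2.7e-15), with no overlap. RUNX proteins bind the letters TGTGGT, and these were searched on both strands of the RefSeq promoters of GRCm38.p6, from 250 bases before to 50 after each start. The letters lay in a promoter of 18.9% of 27025 genes and of 15.4% of 7807 tested genes that matched. Among genes at least 2-fold higher in CD8-like cells 74 of 336 held them, and among those 2-fold higher in CD4-like cells 83 of 509. Of the leading genes with a promoter, 6 of 12 held them on the CD8-like and 1 of 11 on the CD4-like side. They are printed here for 4 CD8-like genes and for Izumo1r, the CD4-like gene, as the 250 bases before the start on the gene's strand, with these letters, or their reverse complement, in capitals. The nearest copy lies 50 bases before the start of Gzma (chr13:113100982-113101231, minus strand), 129 before Klrk1 (chr6:129623865-129624114, minus), 54 before Cx3cr1 (chr9:120068297-120068546, minus), 9 before Klrc2 (chr6:129660597-129660846, minus, 2 copies) and 127 before Izumo1r (chr9:14903768-14904017, minus). In another Klrc2 promoter, not printed, the nearest copy lies 49 bases before the start. Of the CD8-like genes not printed, Klre1 has its copy 229 bases before the start, with none in another promoter. The copy of Itgax lies after the start.
Gzma: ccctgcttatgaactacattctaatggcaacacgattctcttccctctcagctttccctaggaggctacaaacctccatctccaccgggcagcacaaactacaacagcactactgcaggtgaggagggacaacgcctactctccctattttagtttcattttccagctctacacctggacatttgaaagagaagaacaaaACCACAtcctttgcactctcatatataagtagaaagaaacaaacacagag
Klrk1: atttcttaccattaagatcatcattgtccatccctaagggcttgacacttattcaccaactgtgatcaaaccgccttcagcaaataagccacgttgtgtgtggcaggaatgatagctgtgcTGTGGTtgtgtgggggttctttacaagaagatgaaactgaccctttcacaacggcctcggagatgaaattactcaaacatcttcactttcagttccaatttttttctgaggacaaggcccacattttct
Cx3cr1: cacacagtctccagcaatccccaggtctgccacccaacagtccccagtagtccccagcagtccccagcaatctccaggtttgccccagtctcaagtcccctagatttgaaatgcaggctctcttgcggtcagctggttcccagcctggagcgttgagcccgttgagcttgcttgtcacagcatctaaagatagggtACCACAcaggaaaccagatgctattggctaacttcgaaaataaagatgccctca
Klrc2: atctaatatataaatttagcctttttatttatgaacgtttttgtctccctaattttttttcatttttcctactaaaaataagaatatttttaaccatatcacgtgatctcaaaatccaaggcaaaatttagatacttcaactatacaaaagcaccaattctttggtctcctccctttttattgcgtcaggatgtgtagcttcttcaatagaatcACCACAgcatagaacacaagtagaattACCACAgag
Izumo1r: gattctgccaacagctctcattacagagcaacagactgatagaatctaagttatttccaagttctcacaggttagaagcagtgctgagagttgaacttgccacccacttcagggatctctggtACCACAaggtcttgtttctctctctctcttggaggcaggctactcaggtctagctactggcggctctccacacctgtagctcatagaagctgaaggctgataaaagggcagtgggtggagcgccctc
A match is a run of letters and says nothing of a factor's binding, and genes without it in this window were not searched elsewhere. Letters of T-box factors and of TCF and LEF factors were searched in the same way. Each lay in 1 of 18 promoters of the leading genes on the CD8-like side and 1 of 18 on the CD4-like side.

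The lineage transcription factors fell on both sides. Of 48 tested factors 24 were called toward CD4-like and 15 toward CD8-like cells, with a median log2 of -0.43 (14 and 7 without the library block). Zbtb7b, which encodes Thpok, stood at 12.3 and 12.5 CPM in CD8-like and 41.3 and 52.8 in CD4-like cells, the reverse order of Runx3. Id2, an inhibitor of E proteins that favours effector cells, stood at 1110 and 965 against 443 and 424 CPM (log2 1.26 ± 0.06), while its relative Id3 stood at 32.7 and 25.4 against 292 and 186. Tbx21, the Th1 and effector factor T-bet, stood at 117 and 114 CPM in CD8-like and at 34.9 and 41.4 in CD4-like cells (log2 1.62). Prdm1, which encodes Blimp1, was higher in CD8-like cells (15.9 and 13.1 against 6.20 and 6.75 CPM, log2 1.22), and Bcl6, the follicular helper factor that Blimp1 represses, was higher in CD4-like cells on few counts (0.834 and 0.158 against 5.49 and 3.07 CPM). Ascl2, another follicular helper factor, stood at 0.596 and 0.316 against 12.1 and 5.83 CPM (log2 -4.28 ± 0.34, and -3.45 in replicate 2 alone). Klf2, which controls egress receptors, differed little between classes (log2 0.46) and more between libraries, at 601 and 1247 CPM in CD8-like and 393 and 1009 in CD4-like cells.

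The genes with the largest differences were of many kinds. On the CD8-like side they ran from the Ly49 receptor Klra7 and Gzma to Klrc2, and on the CD4-like side from Sostdc1, Padi4 and Angptl2 to Maf. G0s2, an inhibitor of lipid breakdown, was among the 15 leading CD8-like genes at 34.9 and 21.5 against 1.55 and 3.07 CPM (log2 3.89 ± 0.25, and 2.71 in replicate 2 alone). On the CD4-like side St6gal1, which adds sialic acid to glycans, stood at 2.08 and 1.11 CPM in CD8-like and 21.3 and 19.0 in CD4-like cells (log2 -3.51 ± 0.23, adjusted p = 8.9e-14). Its sister enzyme gene St3gal6, which adds sialic acid by another linkage, went the other way at 129.6 and 98.4 against 38.6 and 27.3 CPM (log2 1.78). Izumo1r, the folate receptor 4 of regulatory and follicular helper cells, stood at 24.9 and 10.6 against 352 and 183 CPM. The leading genes were chosen for having no overlap between the sums of the classes, which 26.6% of all tested genes had with CD8-like higher and 28.8% with CD4-like higher.

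**Figure D4:**
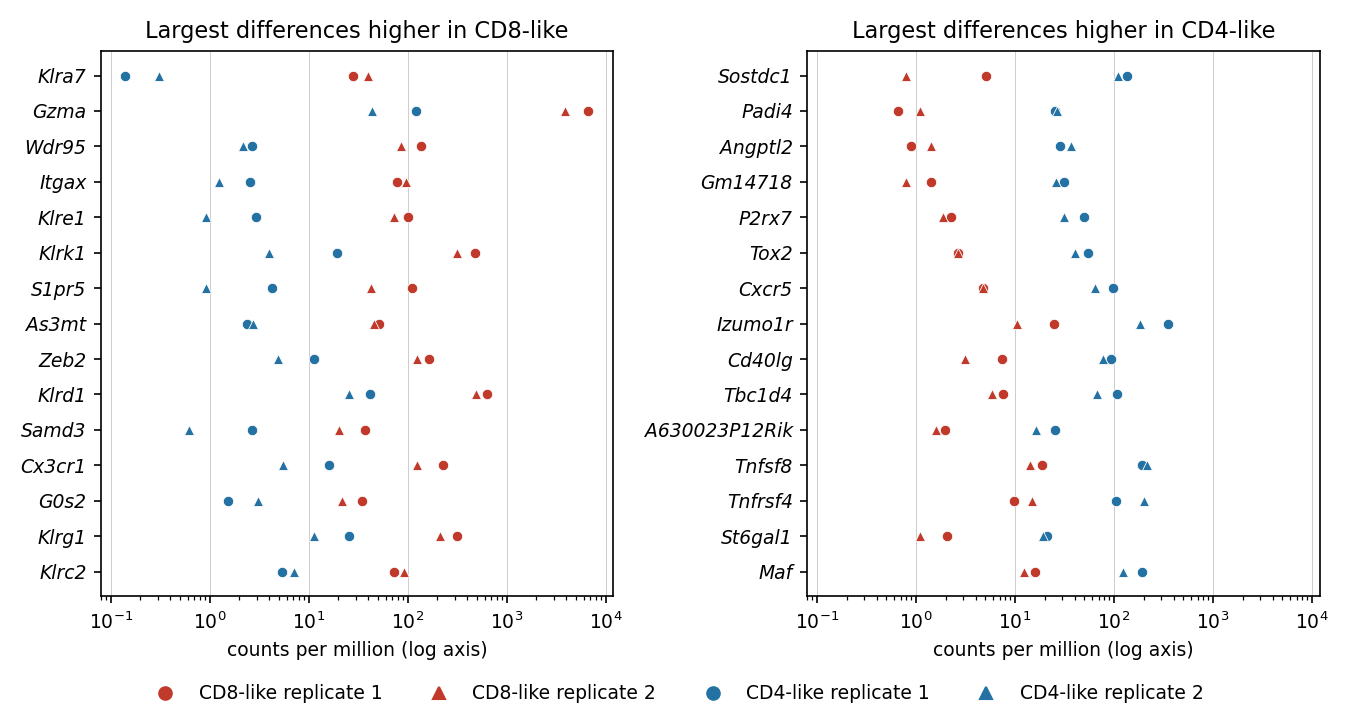
CPM (log axis) of the 15 genes per direction with the largest differences, in CD8-like (red) and CD4-like (blue) cells of replicate 1 (circles) and replicate 2 (triangles). The red and blue points do not overlap for any gene, as the choice required, and Gzma reaches 6618 CPM.

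Secreted cytokines, chemokines and TNF-family ligands, taken as 1 list, were mostly higher in CD4-like cells. Of 22 tested members 13 were higher there and 3 in CD8-like cells, with a median log2 of -0.73 (8 and 2 without the library block). Tnfsf11, the ligand RANKL, stood at 1.55 and 0.790 CPM in CD8-like and 25.9 and 12.3 in CD4-like cells (log2 -4.03 ± 0.24). Ebi3, a chain of IL-27 and IL-35, had 0.596 and 0 against 7.47 and 5.83 CPM. Tnf (2.20 and 2.05 against 14.8 and 7.67 CPM, log2 -2.54, and -1.79 in replicate 2 alone) and its neighbour Lta (0.894 and 1.74 against 9.58 and 6.14, log2 -2.89, and -1.69 in replicate 2 alone) were higher in CD4-like cells, as was Ltb, which pairs with Lta, at 439 and 494 against 824 and 796 (log2 -0.80). Il21, a helper cytokine for B cells, stood at 0.715 and 0.316 against 13.7 and 12.6 CPM. Of the chemokine genes, Ccl5, Ccl9 and Xcl1, which attracts cross-presenting dendritic cells, were higher in CD8-like cells. Xcl1 stood at 13.8 and 6.63 against 2.39 and 0.614 CPM (log2 2.65 ± 0.29). Ccl9 stood at 10.5 and 1.89 against 2.54 and 0 CPM, with sums of different libraries overlapping, and its call was lost without the library block (adjusted p = 0.29). Its log2 difference was 1.96 in replicate 1 and 3.16 in replicate 2, and 5.25 without cells over 3 times the median UMI total.

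Ccl3 and Ccl4, chemokines that recruit inflammatory cells, were not called, and their replicates disagreed. Ccl4 stood at 133 and 149 CPM in CD8-like cells and at 4.37 and 253 in CD4-like cells (log2 1.06, adjusted p = 0.0703), and Ccl3 at 32.9 and 34.9 against 2.96 and 95.1. In CD4-like cells of replicate 2, 826 Ccl4 UMIs came from 19 cells, and 3 cells gave 654 of them (79.2%). Those 3 cells held 12, 32 and 11 UMIs of Cd3 genes, 2, 3 and 3 of Cd4, 28, 13 and 7 of Ifng, 2, 1 and 0 of the myeloid genes Lyz2 and Cst3 together and 0 of Cd79a. By cells the order was the same in both libraries: a Ccl4 UMI was found in 23.7% and 20.2% of CD8-like and in 1.34% and 3.37% of CD4-like cells. Ifng, the interferon of both effector kinds, did not pass the test (31.6 and 36.6 against 22.1 and 58.0 CPM, log2 -0.04, adjusted p = 0.885). Its UMIs were found in 11.6% and 15.3% of CD8-like and 6.84% and 12.3% of CD4-like cells.

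Receptors for cytokines split by chain. Of 24 tested chains 9 were called toward CD8-like and 7 toward CD4-like cells, with a median log2 of 0.04 (4 and 3 without the library block). The shares called over all tested genes were 18.0% and 18.7%. Ifngr1, the ligand-binding chain of the interferon gamma receptor, stood at 312 and 349 against 106 and 149 CPM (log2 1.40 ± 0.08). Il18rap (113 and 74.4 against 31.7 and 32.8, log2 1.59) and Il10ra (30.3 and 18.8 against 9.58 and 6.14, log2 1.65), of the IL-18 and IL-10 receptors, were also higher in CD8-like cells. Il6ra, the IL-6 receptor, and Il6st, its shared signalling chain gp130, were higher in CD4-like cells, at 10.4 and 7.11 against 67.3 and 39.0 CPM (log2 -2.63 ± 0.13) and 8.58 and 7.90 against 31.1 and 23.9 (log2 -1.78). Il2rg, the common chain of the IL-2 family of receptors, stood at 247 and 218 against 236 and 213 CPM and did not pass the test. Il7r, kept by memory precursors, stood at 84.9 and 41.4 against 92.0 and 28.2 CPM (adjusted p = 0.608), with the replicates of each class farther apart than the classes.

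Chemokine and lipid receptors were also divided, with 11 of 25 called toward CD8-like and 10 toward CD4-like cells and a median log2 of 0.07 (7 and 7 without the library block). Ccr2, a receptor for inflammatory chemokines, stood at 214 and 150 against 42.3 and 31.6 CPM (log2 2.31). Cxcr3, the receptor for interferon-induced chemokines, was higher in CD4-like cells at 152 and 227 against 278 and 325 CPM (log2 -0.71), while Cxcr6 had the opposite order at 259.7 and 282 against 135 and 163 (log2 0.87). Ccr6 was low but higher in CD4-like cells, at 0.417 and 0.474 against 10.3 and 6.75 CPM. Ccr7, the receptor that leads cells into lymph nodes and the T zone, stood at 26.8 and 28.7 against 108 and 110.5 CPM (log2 -1.98 ± 0.09), and the sums of the classes did not overlap.

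Adhesion molecules were more often higher in CD8-like cells, 15 of 28 against 6, with a median log2 of 0.48 (11 and 4 without the library block). Selplg, the selectin ligand PSGL-1, stood at 952 and 885 against 409 and 505 CPM (log2 1.02), and Cd48, a SLAM-family surface molecule, at 797 and 889.8 against 294 and 372 (log2 1.35). Itga1, the collagen-binding integrin chain CD49a, was low at 7.39 and 7.74 against 0.704 and 1.84 CPM (log2 2.80 ± 0.36, and 1.94 in replicate 2 alone). Its partner chain Itgb1 was higher in CD4-like cells, at 176 and 188 against 263 and 362 CPM (log2 -0.75), and so was Pecam1 at 16.1 and 23.4 against 65.6 and 63.2 (log2 -1.79 ± 0.12). Of genes for S100 proteins, annexins, galectins and the cytoskeleton, 18 of 29 were called toward CD8-like and 3 toward CD4-like cells, with a median log2 of 0.39 (5 and 0 without the library block). Lgals1, a secreted galectin, stood at 6332 and 6536 against 2172 and 3091 CPM (log2 1.31 ± 0.06). Tmsb4x, which binds actin monomers, was among the most abundant transcripts at 26113 and 28146 against 18039 and 18134 CPM (log2 0.58). The 3 higher in CD4-like cells were S100a11 (log2 -0.31), Capg (-0.40) and Anxa5 (-0.27), the latter pair at -0.24 and -0.17 in replicate 2 alone.

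Costimulatory and inhibitory receptors had the lowest median of the 25 lists. Of 28 tested, 21 were higher in CD4-like and 3 in CD8-like cells, with a median log2 of -1.19 (15 and 2 without the library block). Cd28, the main costimulatory receptor, stood at 226 and 237 CPM in CD8-like and 472 and 467 in CD4-like cells (log2 -1.02 ± 0.06), and the TNF-family receptor Cd27 at 269.6 and 299 against 424 and 467 (log2 -0.65). Tnfrsf4, the receptor OX40, stood at 9.89 and 14.8 against 105 and 203 CPM. The 3 genes higher in CD8-like cells were Havcr2 (TIM-3), Entpd1 and Lag3. Entpd1, the ATP-cleaving enzyme CD39, stood at 12.4 and 10.1 against 4.09 and 5.83 CPM (log2 1.32 ± 0.24, and 0.77 in replicate 2 alone). Lag3, which binds class II molecules, stood at 56.4 and 96.8 against 36.9 and 78.9 (log2 0.46, and 0.29 in replicate 2 alone), with sums of different libraries overlapping.

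Genes of the T cell receptor complex differed little. Of 29 tested signalling genes 4 had more and 11 had less in CD8-like cells by the test, with a median log2 of -0.05 (1 and 3 without the library block). The shares called over all tested genes were 18.0% and 18.7%. Cd3d stood at 1144 and 1069 against 1267 and 1136 CPM and did not pass the test (adjusted p = 0.0656), and neither did Lck, the kinase bound to both coreceptors, at 969 and 871 against 931 and 857. Cd3g had log2 -0.25 on 944 and 919.9 against 1156 and 1067 CPM. The larger differences were in modulators of the signal. Cd5, which dampens it, stood at 103 and 127 against 262 and 247 CPM (log2 -1.17 ± 0.08), its relative Cd6 at 126 and 141 against 243 and 217 (log2 -0.80), and Tespa1, which supports thymic selection, differed by -1.36. Txk, a Tec-family kinase, was higher in CD8-like cells at 137 and 108 against 74.5 and 75.2 CPM (log2 0.73).

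**Figure D5:**
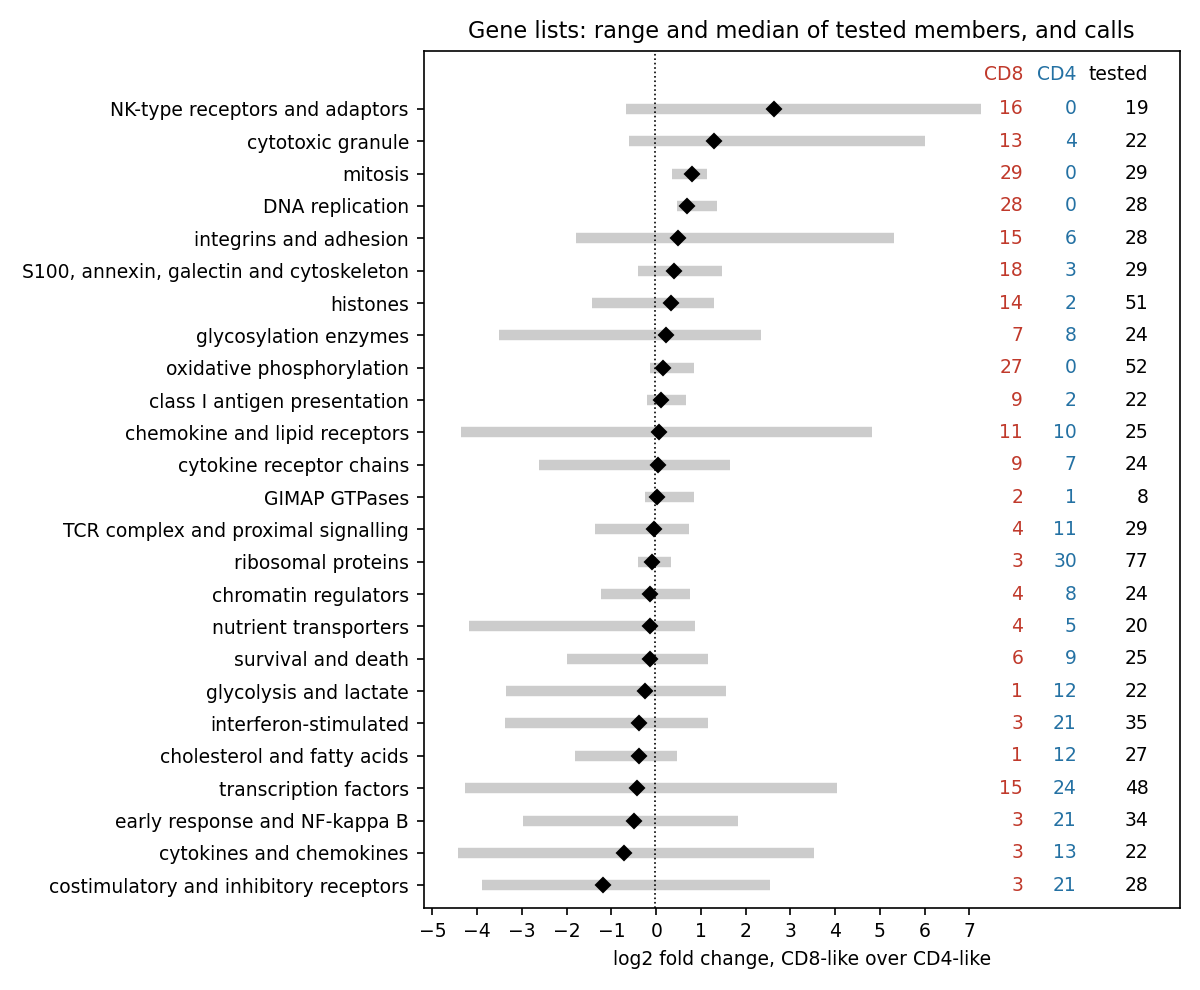
Range (grey bar) and median (diamond) of the log2 fold change of CD8-like over CD4-like cells for the tested members of 25 gene lists, with the number higher in CD8-like cells (red), higher in CD4-like cells (blue) and tested (black); the dotted line is the median of all tested genes, -0.02. NK-type receptors have the highest median at 2.63 and costimulatory and inhibitory receptors the lowest at -1.19.

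All tested genes of DNA replication (28 of 28) and mitosis (29 of 29) were higher in CD8-like cells, with median log2 values of 0.69 and 0.80 and narrow ranges (9 and 7 without the library block). Rrm2, a subunit that makes deoxynucleotides, stood at 193 and 263 against 102 and 111 CPM (log2 1.07 ± 0.08), and Cdt1, which licenses origins, at 41.3 and 48.0 against 18.2 and 20.9 (log2 1.19). Rpa2, which coats single-stranded DNA, stood at 182 and 204 against 68.5 and 97.6 CPM (log2 1.25). Among mitosis genes Cdk1, the kinase that starts mitosis, stood at 82.0 and 70.7 against 45.1 and 24.9 CPM (log2 1.08). The histone variant gene H2afz had log2 1.07 on 2359 and 2208 against 1185 and 999.9 CPM, while the linker histone H1f0, of resting cells, had -1.43 on 17.2 and 12.2 against 46.6 and 32.2. Of 51 histone genes tested 14 were called toward CD8-like and 2 toward CD4-like cells, with a median log2 of 0.32 (3 and 1 without the library block).

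Cells with a UMI of any of 5 mitosis genes were also counted. After thinning to 1500 UMIs, a UMI of Mki67, Top2a, Birc5, Cdk1 or Ccnb2 was found in 896 of 3582 and 339 of 1073 CD8-like cells and in 221 of 1473 and 111 of 552 CD4-like cells. The shares were 35.3% and 48.2% and 23.8% and 33.9%, in the same order, before thinning. All 5 are members of the mitosis list, so the shares restate it and are not shares of dividing cells. The free RNA held Birc5 at 263 and 276 CPM and Ccnb2 at 199 and 149, scaled to its totals, and its part in the shares was not tested. Without the cells that held such a UMI, a setting that removes these genes' own cells by construction, 9 of 27 replication genes and 5 of 14 mitosis genes were still higher in CD8-like cells, with medians of 0.31 and 0.26, and 1 mitosis gene was higher in CD4-like cells. The calls of Dut (log2 -0.01) and Tubb4b (-0.26) were then lost with a change of sign. In that setting the cytotoxic granule list had 13 and 4 calls among 21 tested genes with a median of 1.51, and the NK-type receptors had 18 of 19 and a median of 3.53.

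Lists of energy metabolism had medians of different sign, from -0.39 to 0.16. Of 52 genes of oxidative phosphorylation 27 were called toward CD8-like and 0 toward CD4-like cells with a median log2 of 0.16, but without the library block 3 were called. Atp5h, a subunit of ATP synthase, stood apart at 1225 and 1089 against 660.1 and 620.4 CPM (log2 0.85 ± 0.05), ahead of Cox5a of cytochrome oxidase at 591 and 584 against 387 and 374 (log2 0.63). Of 22 glycolysis and lactate genes 12 were higher in CD4-like and 1 in CD8-like cells, with a median of -0.25 (3 and 1 without the library block). Pkm, pyruvate kinase, stood at 466 and 608 against 694 and 850.5 CPM (log2 -0.53), and Ldhb, the lactate dehydrogenase chain of oxidative tissues, at 2.56 and 1.26 against 24.7 and 16.6 (log2 -3.35 ± 0.22), while Ldha, the chain of glycolytic cells, differed by -0.32. The 1 gene on the other side was the glucose transporter gene Slc2a3. Of 27 genes of cholesterol and fatty acid synthesis 12 were higher in CD4-like and 1 in CD8-like cells, with a median of -0.39 (2 and 0 without the library block). Scd2, which desaturates fatty acids, stood at 15.2 and 18.5 against 36.9 and 46.3 CPM (log2 -1.30), and Acadl, which breaks fatty acids down, was the gene higher in CD8-like cells (90.0 and 108 against 64.8 and 77.9, log2 0.47).

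Interferon-stimulated genes were more often higher in CD4-like cells, 21 of 35 against 3, with a median log2 of -0.38 (11 and 2 without the library block). Ifi27l2a, the most abundant of them, stood at 645 and 866 against 1998 and 2487 CPM (log2 -1.58 ± 0.05), and Slfn5, of the Schlafen family, at 2.38 and 1.74 against 21.3 and 27.0 (log2 -3.38). The 3 higher in CD8-like cells were Ifit1bl1 (33.5 and 32.5 against 14.6 and 15.3 CPM, log2 1.15), Gbp7 (log2 0.60) and Ifi47 (0.35), the last a GTPase gene. Genes of class I antigen presentation, themselves induced by interferon, did not follow: 9 of 22 were called toward CD8-like and 2 toward CD4-like cells, with a median of 0.11, and none was called without the library block. H2-D1, a class I heavy chain, stood at 3741 and 3749 against 2967 and 3071 CPM (log2 0.31), while H2-K1 stood at 1945 and 1791 against 1952 and 1835 and did not pass the test. H2-Q7, a class Ib gene, had log2 0.67. Close copies make counts of single H2 genes uncertain. Of the GIMAP GTPases, which keep lymphocytes alive, Gimap7 alone stood out, at 408 and 450.0 against 229 and 245 CPM (log2 0.85). Of the 8 genes 2 were called toward CD8-like and 1 toward CD4-like cells (1 and 0 without the library block). Over all tested genes 18.0% and 18.7% were called in these directions, and 8 genes are too few to set the family apart.

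Early response and NF-kappa B genes were on the CD4-like side, 21 of 34 against 3, with a median log2 of -0.49 (7 and 1 without the library block). Nfkbia, the feedback inhibitor of NF-kappa B, stood at 144 and 124 against 258 and 296 CPM (log2 -1.03 ± 0.08), and Rgs10, which shortens G protein signals, at 60.9 and 35.5 against 435 and 249 (log2 -2.83 ± 0.08). Dusp6, a phosphatase of ERK kinases, stood at 2.62 and 2.84 against 19.7 and 12.0 CPM (log2 -2.68, and -1.99 in replicate 2 alone). Ier3 was the largest exception, at 12.1 and 9.63 against 3.10 and 3.37 CPM (log2 1.82), beside Fosl2 (1.11) and Dusp5 (0.71), which stood at 0.60 and 0.36 in replicate 2 alone. Jund, an AP-1 factor, differed more between libraries than between classes, at 56.9 and 441 CPM in CD8-like and 71.3 and 585 in CD4-like cells (log2 -0.37).

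The lists of survival, glycosylation, transport and chromatin genes had medians between -0.14 and 0.21. Beside their counts, 18.0% of all tested genes were called toward CD8-like and 18.7% toward CD4-like cells. Of 25 survival and death genes 6 were called toward CD8-like and 9 toward CD4-like cells, with a median log2 of -0.14 (0 and 5 without the library block). Casp4 and Casp1, caspases of the inflammasome, stood at 10.2 and 12.2 against 40.4 and 48.5 CPM (log2 -1.99 ± 0.13) and 42.8 and 41.5 against 84.8 and 80.7 (log2 -0.97). Bcl2l11, the death-promoting BIM, was higher in CD8-like cells at 34.3 and 29.2 against 16.6 and 23.6 CPM (log2 0.75, and 0.30 in replicate 2 alone). Of 24 glycosylation enzymes 7 had more and 8 had less in CD8-like cells by the test (5 and 3 without the library block), among the former Chst11, a sulphotransferase (6.20 and 6.95 against 1.13 and 1.53 CPM, log2 2.34), and Galnt3, which starts O-glycans (log2 1.78). Of 20 nutrient transporters 4 were higher in CD8-like cells and 5 were lower (1 and 2 without the library block), which is near the 18.0% and 18.7% called over all tested genes. The phosphate transporter Slc20a1 stood at 48.0 and 62.8 against 28.9 and 30.1 CPM (log2 0.86), and the anion transporter Slc26a11 at 3.51 and 2.84 against 14.6 and 8.59 (log2 -1.94). The hexose transporter Slc2a6 was counted in 1 UMI in CD8-like cells of each library, against 13 and 6 UMIs in CD4-like cells. Of 24 chromatin regulators 4 had more, a share near that over all genes, and 8 had less in CD8-like cells by the test (0 and 2 without the library block). Kdm5b, a histone demethylase, stood at 12.6 and 13.3 against 26.8 and 37.4 CPM (log2 -1.24), and Suv39h1, a histone methyltransferase, at 16.9 and 18.8 against 10.8 and 9.51 (log2 0.76). Of 77 ribosomal protein genes 30 were higher in CD4-like and 3 in CD8-like cells with a median of -0.09, and none was called without the library block. The largest of these differences, Rpl12, was -0.40.

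Markers of other cells were measured in both classes, as CPM of the class total. The sum of 3 T cell markers was 2385 and 2383 in CD8-like and 2815 and 2705 in CD4-like cells. B cell markers summed to 114 and 16.1 in CD8-like and 429 and 42.1 in CD4-like cells, and 6 of 7 tested were higher in CD4-like cells. Their defining gene Ms4a1 stood at 0.500 and 0 in CD8-like and 10.2 and 0 in CD4-like cells, and Cd79a at 1.61 and 0 against 13.8 and 0.326. In 1 alternative, cells that held 2 or more UMIs of 8 B, myeloid or erythroid genes were left out. Cst3, among the 8, stood at 175 and 182 in CD8-like and 136 and 137 in CD4-like cells (log2 0.46, called). How many cells were left out through Cst3 was not counted, so they are no count of other cell types. This step left 2836 of 3615 and 757 of 1087 CD8-like and 1249 of 1492 and 448 of 563 CD4-like cells. The class II genes H2-Aa (log2 -1.94, -1.21 in replicate 2 alone, then 0.85), H2-Ab1 (-1.57, then -0.24) and H2-Eb1 (-1.95, then -0.36) then lost their calls, as did C1qb of macrophages (-1.39, then 0.35). Cd79b, a B cell receptor chain, was not called at -0.10 and then was at 1.54 (adjusted p = 4.71e-05). Cd74, the class II chaperone, kept its call at -1.18 (adjusted p = 0.00132) after -1.98 (-2.80 in replicate 2 alone). Myeloid markers summed to 251 and 211 against 232 and 161, with Cst3 as the main part of each sum, and dendritic markers to 0.799 to 1.53. Lyz2, also of the myeloid list, stood at 26.3 and 3.04 against 36.1 and 3.59 and did not pass the test. Erythroid markers summed to 272 in CD8-like cells and 245 in CD4-like cells of replicate 1 and to 9.91 and 8.16 in replicate 2, and 3 cells gave 90.5% of the Hbb-bs UMIs of the CD8-like class of replicate 1. Regulatory T cell markers summed to 182 and 211 against 747 and 629, with 6 of 7 higher in CD4-like cells, and a Foxp3 UMI was found in 2.61% and 1.24% of CD4-like and 0.581% and 0.276% of CD8-like cells. All 8 follicular helper markers were higher in CD4-like cells (353 and 355 against 1129 and 913). Of 7 Th1 markers, by contrast, 6 were higher in CD8-like cells, with Ccl5, which CD8 effectors also make, as the main part of the sum (31967 and 19734 against 3117 and 2983).

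Single cells were then placed by genes chosen in the other library. The 15 genes per direction with the largest differences in 1 library were counted in the cells of the other, each thinned to 1500 UMIs, and 12 of 15 CD8-like and 9 of 15 CD4-like genes were the same in both choices. Of CD8-like cells 83.1% (95% interval 80.8 to 85.3) in replicate 2 and 87.8% (86.7 to 88.9) in replicate 1 held more UMIs of the CD8-like genes than of the CD4-like genes, and 2.70% and 3.43% held fewer. Of CD4-like cells 56.3% (52.1 to 60.5) and 61.4% (58.8 to 63.9) held more UMIs of the CD4-like genes, 35.5% and 27.1% held equal numbers and 8.15% and 11.5% held more of the CD8-like genes. The intervals treat the cells of a library as independent, so they cover counting error only and leave out the spread between libraries. Cells with neither coreceptor had more CD4-like gene UMIs in 56.9% of replicate 2 and 51.8% of replicate 1 and more CD8-like gene UMIs in 10.6% and 16.0%. Cells with both were mixed, at 34.0% and 29.5% with more CD8-like and 37.8% and 45.5% with more CD4-like gene UMIs. The CD8-like genes include Gzma, the most abundant of them, which was also present in the free RNA.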

How the data were processed

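Droplet 3′ RNA sequencing (10x version 2 chemistry, per the labels' protocols) was read from the deposited matrices of raw UMI counts per gene and barcode, empty droplets included. Per the submitters' processing notes the authors used bcl2fastq 2.17, Cell Ranger and the build mm10. Cell Ranger's version and strand setting were not given in the sources used here, so counts of overlapping, antisense and closely related genes (Klr, H2, Gzm) are uncertain. The matrices list 27998 genes. Barcodes with 500 or more genes and no more than 10% of UMIs from mitochondrial genes were kept as cells; no doublet caller was run, and cells over 3 times their library's median UMI total were left out in an alternative. Counts were summed per library and class without Cd4, Cd8a and Cd8b1. The sums were tested with edgeR 4.0.16 (TMM, filterByExpr, quasi-likelihood test, library as block, Benjamini-Hochberg adjustment at 0.05) in R 4.3.3, with DESeq2 1.42.0 as an alternative. The library was a block because both classes of a library share its capture wells. The residual degrees of freedom were 1 and the common biological coefficient of variation 0.0555. The fit was also run on simulated counts with its own common spread and with class differences equal in both libraries. Such counts cannot show whether the calls hold beyond these 2 libraries, and the outcome is not given here. Thinning drew 1500 UMIs per cell; of CD8-like cells 33 and 14 and of CD4-like cells 19 and 11 were too shallow. Coordinates are those of GENCODE on GRCm38. Nothing in the labels says that the 2 libraries came from separate animals. Xist was found only in replicate 1 and Ddx3y only in replicate 2. Where the replicates differ, sex therefore cannot be told apart from other differences between them. The members and gene lists were chosen with earlier results of these data known. Named genes were, per list, the 3 most abundant, up to 3 per direction with the largest called differences and up to 3 called against the list's majority, besides 15 leading genes per direction with no overlap and at least 20 CPM. A further 34 genes with a reported difference, such as Runx3, Zbtb7b, Klrc1 and Ccl4, were chosen after their values were seen; of 28 of them that were called, 16 were called in every alternative in which they were tested. The 5 other libraries are not analysed here beyond the class background, and some genes are not reported here.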

Additional observations from a re-analysis of the deposited data

How the results depend on the processing

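Of 184 called named genes 110 kept their call in every alternative analysis in which they were tested, and 19 named genes were not called. The count of genes higher in CD8-like cells was 1846 and that of genes higher in CD4-like cells 1917. They were 748 and 631 with DESeq2, 1090 and 996 with each cell thinned to 1500 UMIs, and 1215 and 1206 without cells holding a UMI of 5 mitosis genes; the last 2 settings sum fewer UMIs. Without the replicate block, which ignores that both classes of a library share its capture wells, they were 475 and 561. Without the mitosis-gene cells Dut (-0.01), Tubb4b (-0.26) and Cbx3 (-0.12) changed sign, as did the medians of the T cell receptor signalling (0.04), ribosomal (0.07) and histone (-0.06) lists; for Cbx3 and the lists the cause was not tested. With 1000 or more genes per cell the CD8-like share was 55.4% and 52.0% and that of neither 17.8% and 14.01%. With cells thinned before the classes were set, CD8-like cells were 49.6% and 47.3%, CD4-like 11.6% and 12.4%, both 0.917% and 1.03%, and neither 37.9% and 39.3%. Before thinning 59.1% and 53.6% of CD4-like cells of replicates 1 and 2 held a single class UMI. Leaving out a library left no residual degrees of freedom, so those settings gave values without a test.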

Other observations

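Long noncoding RNA genes, a group chosen after the data were seen, were split much like coding genes. Of 316 tested, 51 were called toward CD8-like and 67 toward CD4-like cells with a median log2 of -0.10, beside 1783 and 1841 of 9851 protein-coding genes with a median of -0.02. On the CD4-like side stood Gm14718, on the X chromosome like Cd40lg, at 1.43 and 0.790 CPM in CD8-like and 31.1 and 25.8 in CD4-like cells (log2 -4.56 ± 0.23), and A630023P12Rik at 1.97 and 1.58 against 25.5 and 16.3. Gm26551 stood at 4.29 and 3.32 against 23.5 and 22.7 CPM (log2 -2.54). For each of the 3 genes the sums of the classes did not overlap. On the CD8-like side 2310031A07Rik stood at 19.7 and 27.0 against 2.54 and 7.98 CPM (log2 2.36, and 1.73 in replicate 2 alone) and D930028M14Rik differed by log2 1.48 (1.88 in replicate 1 and 0.85 in replicate 2). Whether reads of neighbouring genes add to these counts was not tested.

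The differences in the 2 libraries were more than 1 apart in log2 for 186 of the 3763 called genes, of which 6 are given here, chosen after their values were seen. Klrk1 differed by 4.60 in replicate 1 and 6.22 in replicate 2, and Itgax by 4.84 and 6.05. Havcr2 had 3.17 and 1.78, and Plek, a substrate of protein kinase C, 2.41 and 1.20. On the CD4-like side Sostdc1 had -4.69 and -6.76 and Cd81, a tetraspanin, -2.06 and -3.81. All of these kept their direction in both libraries.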
